A study of Homo sapiens with 4 samples.

Results

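Receptor tyrosine kinases, the cell-surface enzymes that start growth factor signalling, were described here beside STYK1 in Huh7 cells transfected with a STYK1 plasmid. The genes were 56 human receptor tyrosine kinases from a fixed list and STYK1, matched to the array by gene symbol. Of these 57 genes, 52 had a probe set (the group of probes that reads 1 transcript) that carries their symbol alone, namely STYK1 and 51 receptors, out of 22395 genes named on the array. ERBB2, PDGFRA, DDR1 and ROS1 had only probe sets that also list a second symbol, and EPHB2 had none, so no level is given for these 5. Each measured member had 1 such probe set.

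Huh7 is a hepatocellular carcinoma line of human origin. Cells of one group received the plasmid pcFLAG-hSTYK1 (2 arrays), and control cells received the plasmid pcFLAG (2 arrays). The cells are of a single line, the labels give neither a dose nor a time after transfection, and they do not say whether the samples of a group were separate cultures. The p-values therefore rest on the spread among these arrays alone, which may be technical. Values are signals as the authors deposited them, read as log2, a base that was inferred.

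A receptor tyrosine kinase binds a ligand outside the cell, pairs with a second receptor and phosphorylates tyrosines on itself, and adaptor proteins then dock there and switch on the RAS-ERK and PI3K-AKT pathways. STYK1, also known as NOK, is a membrane-spanning kinase related to these receptors but with hardly any part outside the cell, and no ligand is established for it. In liver cells MET, EGFR, INSR and FGFR4 are well-known members, which receive hepatocyte growth factor, EGF-type ligands, insulin and FGF19.

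The arrays carried hepatocyte transcripts. All 16 measured markers of hepatocytes and Huh7 lay above the floor, a background level set on each array so that 95% of 433 probe sets for olfactory receptors, which liver cells are not known for, lie under it (0.73 to 0.78). Of the markers of other cell types, 0 of 7 endothelial, 1 of 9 fibroblast and stellate cell, 5 of 11 immune and 5 of 7 cholangiocyte genes were above it. Of all named genes 49.7% were above it, so the immune share (45.5%) was near that and the cholangiocyte share (71.4%) over it. The highest mean signals were 7.95 among immune and 7.31 among cholangiocyte markers. These counts by themselves do not tell cell types apart. The median signal was 0.615 to 0.629 on the 4 arrays, whose pairs correlated at 0.985 to 0.987 (Pearson) within and between groups. Precision is limited by the small number of arrays, and no batch is given in the labels or the table.

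STYK1, the transfected gene, had the highest signal of all 52 members in the cells that received it. It read 7.40 and 7.86 in the pcFLAG-hSTYK1 arrays, against 0.26 and 0.61 in the pcFLAG arrays. Both pcFLAG values were under the floor and the groups were far apart. With the values read as log2, STYK1 was therefore at least 118-fold higher, taking the mean floor of 0.74 on the pcFLAG arrays as its level there. The fitted log2 difference was 7.19 ± 0.20 (standard error, limma, adjusted p = 0.0373). It was the single call among the 53617 probe sets, a share of 0.00187%. The call was lost without any 1 of the 4 arrays, where the difference stayed at 6.96 to 7.42. It was also lost with the replicate number as a block (limma, adjusted p = 0.0637), where the difference was 7.19. Each of these fits had less data left to measure the spread than the main fit.

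Against the receptors, STYK1 ranked 1 of 52 on each pcFLAG-hSTYK1 array, against 52 of 52 on pcFLAG replicate 1 and 34 of 52 on pcFLAG replicate 2. The signal of a probe set depends on its own probes as well as on the transcript, so these ranks order signals and not amounts of mRNA. On the pcFLAG-hSTYK1 arrays STYK1 lay 0.33 and 0.90 log2 units over MET, the next member. Among all 22395 genes, 98.9% and 99.3% had a lower signal than STYK1 on the pcFLAG-hSTYK1 arrays, against 1.99% and 35.3% on the pcFLAG arrays. STYK1 thus had the top signal of the list in the transfected cells and one within background in the control cells. Whether its probes lie in the part carried by the plasmid is not given in the sources used here.

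**Figure D1:**
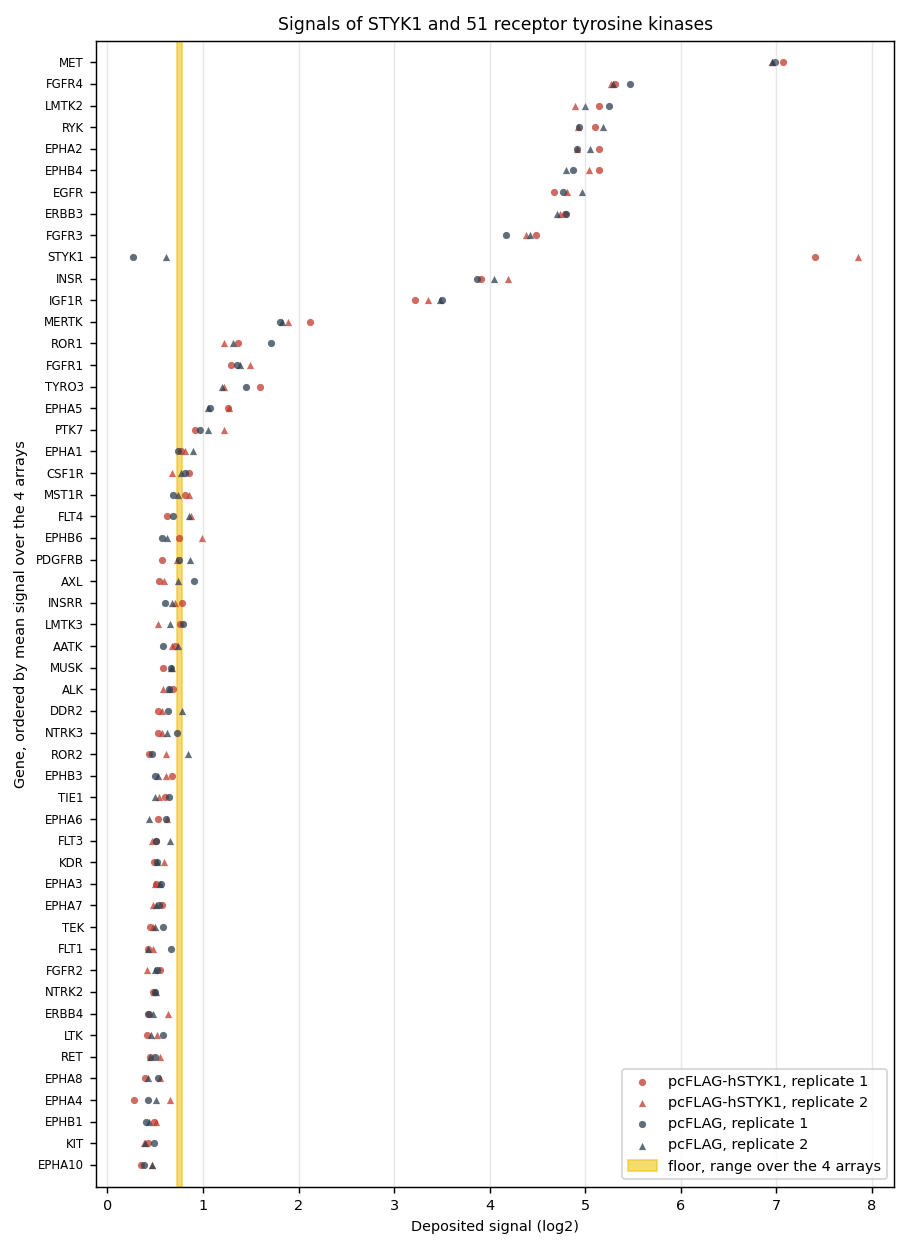
Deposited signal, read as log2 (horizontal axis), of STYK1 and the 51 measured receptors on each of the 4 arrays, ordered by mean signal, with the range of the floor as a yellow band. STYK1 parts by group at 7.40 and 7.86 against 0.26 and 0.61, while each receptor's 4 points lie close together and many lie at or under the floor.

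By the floor, Huh7 cells expressed a subset of the receptors. Of the 51 measured receptors 21 lay above the floor on both arrays of at least 1 group, a share of 41.2%, where 49.7% of all named genes did. The signals fell into steps: 11 receptors had a mean over 3, 6 had a mean between 1 and 3, and the others lay at 0.80 or less. Counting only receptors above the floor on all 4 arrays left 18, since MST1R (pcFLAG-hSTYK1 arrays) and PDGFRB and CSF1R (pcFLAG arrays) passed through 1 group.

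The promoters of the expressed receptors can be set beside these signals. RefSeq promoters (GRCh38.p14) were found for 46 of the 51 receptors, and the 250 bases before the start site were searched for the dinucleotide CG, which reads the same on both strands. At least 10 such CG pairs were held by 17 of 19 receptors above the floor and 17 of 27 not above it, against 51.9% of the 27305 promoters of the same length. The median count was 24 above the floor and 15 not above it, and 11 over all promoters. The set of all promoters was not matched to the receptors by type of gene. A single start site was taken per gene, and whether Huh7 cells use it was not checked. Shown here are MET, the receptor with the highest signal (chr7:116671946-116672195, plus strand, 24 CG pairs), EPHB4, the receptor with the smallest unadjusted p between the groups (chr7:100827524-100827773, minus strand, 29 CG pairs), and TEK, an endothelial receptor under the floor (chr9:27108975-27109224, plus strand, 5 CG pairs), each 5′ to 3′ with CG in capitals.
MET: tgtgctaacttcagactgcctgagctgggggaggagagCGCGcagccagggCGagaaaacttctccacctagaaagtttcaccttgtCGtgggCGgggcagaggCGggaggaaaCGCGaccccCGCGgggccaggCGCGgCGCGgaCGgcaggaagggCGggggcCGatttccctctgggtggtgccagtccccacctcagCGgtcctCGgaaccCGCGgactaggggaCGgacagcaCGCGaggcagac
EPHB4: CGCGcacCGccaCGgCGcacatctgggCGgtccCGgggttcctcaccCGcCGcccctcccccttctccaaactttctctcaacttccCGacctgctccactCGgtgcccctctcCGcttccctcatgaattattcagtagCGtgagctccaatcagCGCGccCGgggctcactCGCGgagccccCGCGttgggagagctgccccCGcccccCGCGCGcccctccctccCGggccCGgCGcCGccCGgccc
TEK: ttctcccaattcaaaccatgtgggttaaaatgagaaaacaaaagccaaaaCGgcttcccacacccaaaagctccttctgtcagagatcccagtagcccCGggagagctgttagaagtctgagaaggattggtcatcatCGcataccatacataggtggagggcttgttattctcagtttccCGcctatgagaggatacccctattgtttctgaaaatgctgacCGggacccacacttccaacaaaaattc
CG pairs recur along most of the MET and EPHB4 windows and stand singly in that of TEK. TEK was picked as an example with few CG pairs after the counts were seen, and lay under the median of 15 of receptors not above the floor. Of other endothelial receptors not above the floor, TIE1 held 1, KDR 17 and FLT1 25. These counts describe the windows and carry no test.

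MET, the receptor for hepatocyte growth factor, had the highest receptor signal. It read 7.07 and 6.96 in the pcFLAG-hSTYK1 arrays, against 6.98 and 6.95 in the pcFLAG arrays, and the groups overlapped. Its log2 difference was 0.04, with a 95% interval of -0.19 to 0.28. HGF, the gene of its ligand, lay under the floor on all 4 arrays, at 0.37 and 0.52 in the pcFLAG-hSTYK1 arrays and 0.54 and 0.40 in the pcFLAG arrays. MST1R, the receptor for macrophage-stimulating protein and the closest relative of MET, lay near the floor, at 0.81 and 0.85 in the pcFLAG-hSTYK1 arrays and 0.68 and 0.74 in the pcFLAG arrays.

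Among the FGF receptors, FGFR4, the main one of hepatocytes, had the highest signal. FGFR4 read 5.32 and 5.27 in the pcFLAG-hSTYK1 arrays, against 5.47 and 5.29 in the pcFLAG arrays. Its values overlapped between the groups, with a difference of -0.08 (95% interval -0.35 to 0.19). FGFR4 works with the co-receptor KLB to bind FGF19, and both partners were above the floor. KLB read 4.88 and 5.03 in the pcFLAG-hSTYK1 arrays and 5.03 and 4.68 in the pcFLAG arrays. FGF19 read 3.82 and 3.54 in the pcFLAG-hSTYK1 arrays and 3.35 and 3.86 in the pcFLAG arrays. All of these overlapped, and HGF, KLB and FGF19 were chosen after their values were seen, as partners of receptors with high signals. FGFR3 read 4.48 and 4.38 in the pcFLAG-hSTYK1 arrays, against 4.17 and 4.42 in the pcFLAG arrays, where replicate 1 lay lowest. The FGFR3 difference of 0.13 was 0.084 without pcFLAG-hSTYK1 replicate 1, 0.0082 without pcFLAG replicate 1 and 0.26 without pcFLAG replicate 2. FGFR1 averaged 1.39 and 1.37 in the pcFLAG-hSTYK1 and pcFLAG arrays, and FGFR2 lay under the floor.

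Of the ERBB family, which binds EGF and neuregulins, EGFR and ERBB3 were expressed and ERBB4 lay under the floor. EGFR read 4.67 and 4.81 in the pcFLAG-hSTYK1 arrays, against 4.77 and 4.96 in the pcFLAG arrays. ERBB3, a receptor with little kinase activity of its own that signals through its partners, read 4.78 and 4.73 in the pcFLAG-hSTYK1 arrays, against 4.80 and 4.71 in the pcFLAG arrays. Both overlapped between the groups, with differences of -0.12 for EGFR (95% interval -0.42 to 0.18) and 0.0058 for ERBB3 (-0.23 to 0.24). The EGFR difference was -0.054 without pcFLAG-hSTYK1 replicate 1, -0.19 without pcFLAG-hSTYK1 replicate 2, -0.22 without pcFLAG replicate 1 and -0.026 without pcFLAG replicate 2.

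The insulin receptor INSR and the IGF receptor IGF1R were both above the floor, and INSRR, their relative that senses alkaline pH, was not. INSR read 3.91 and 4.19 in the pcFLAG-hSTYK1 arrays, against 3.87 and 4.04 in the pcFLAG arrays, which overlap. IGF1R read 3.22 and 3.35 in the pcFLAG-hSTYK1 arrays, against 3.50 and 3.48 in the pcFLAG arrays. Both IGF1R values of the pcFLAG-hSTYK1 arrays lay below both of the pcFLAG arrays, but the difference of -0.20 (95% interval -0.45 to 0.05) did not pass (limma, adjusted p = 0.979, unadjusted p = 0.0906) and was -0.13 without pcFLAG-hSTYK1 replicate 1.

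Ephrin receptors, which bind ephrins on neighbouring cells, formed the largest group. Of 9 measured EPHA receptors EPHA2, EPHA5 and EPHA1 were above the floor, and of 4 measured EPHB receptors EPHB4 was. EPHA1 lay near the floor, at 0.77 and 0.82 in the pcFLAG-hSTYK1 arrays and 0.73 and 0.89 in the pcFLAG arrays. EPHA2 read 5.15 and 4.92 in the pcFLAG-hSTYK1 arrays, against 4.92 and 5.05 in the pcFLAG arrays, and overlapped. EPHB4 read 5.15 and 5.04 in the pcFLAG-hSTYK1 arrays, against 4.87 and 4.80 in the pcFLAG arrays. Both EPHB4 values of the pcFLAG-hSTYK1 arrays were higher than both of the pcFLAG arrays, by 0.26 on average (standard error 0.09, 95% interval 0.01 to 0.50), which was short of the threshold (limma, adjusted p = 0.979, unadjusted p = 0.0419). EPHA5 read 1.26 and 1.28 in the pcFLAG-hSTYK1 arrays, against 1.07 and 1.05 in the pcFLAG arrays, a difference of 0.20 that did not pass either (limma, adjusted p = 0.979).

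The EPHB receptors were the 1 family of more than 2 measured members whose groups parted in the same direction for every member, a pattern seen after the values were known. Among smaller families, the 2 measured neurotrophin receptors and DDR2, the 1 measured member of its family, all parted lower. So did 15.4% of all probe sets. None of these receptors was above the floor on both arrays of either group. Their differences were -0.023 for NTRK2, -0.13 for NTRK3 and -0.16 for DDR2. Besides EPHB4, EPHB6 read 0.75 and 0.99 in the pcFLAG-hSTYK1 arrays and 0.57 and 0.63 in the pcFLAG arrays. EPHB3 read 0.67 and 0.62 in the pcFLAG-hSTYK1 arrays and 0.50 and 0.52 in the pcFLAG arrays. EPHB1 read 0.48 and 0.51 in the pcFLAG-hSTYK1 arrays and 0.40 and 0.43 in the pcFLAG arrays. All 4 EPHB receptors were higher without overlap, with differences of 0.08 to 0.27 and a median of 0.20. Of all probe sets 17.4% had groups parted in that direction. The family was picked for this pattern, so that share is no test of it. The EPHB6 difference of 0.27 was 0.15 without pcFLAG-hSTYK1 replicate 2. EPHB6, EPHB3 and EPHB1 were not above the floor on both arrays of either group, and 0 of the 4 passed the adjusted threshold (limma, adjusted p = 0.979 to 0.984).

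LMTK2, a membrane kinase of endosomal transport, and RYK, a WNT receptor whose kinase domain is inactive, had signals in the range of EPHA2 and EPHB4. LMTK2 read 5.15 and 4.90 in the pcFLAG-hSTYK1 arrays, against 5.25 and 4.997 in the pcFLAG arrays. RYK read 5.10 and 4.92 in the pcFLAG-hSTYK1 arrays, against 4.93 and 5.19 in the pcFLAG arrays. Both overlapped between the groups. The relatives of LMTK2, LMTK3 and AATK, were not above the floor.

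The TAM receptors bind GAS6 and PROS1 and act in the clearance of dying cells. MERTK read 2.12 and 1.89 in the pcFLAG-hSTYK1 arrays, against 1.81 and 1.82 in the pcFLAG arrays, a difference of 0.19 without overlap that did not pass (limma, adjusted p = 0.979). It was 0.076 without pcFLAG-hSTYK1 replicate 1 and 0.31 without pcFLAG-hSTYK1 replicate 2. TYRO3 averaged 1.41 in the pcFLAG-hSTYK1 arrays and 1.33 in the pcFLAG arrays, and overlapped. AXL, at 0.54 and 0.59 in the pcFLAG-hSTYK1 arrays and 0.91 and 0.74 in the pcFLAG arrays, showed the largest lower difference of the 51 receptors, -0.25 (limma, adjusted p = 0.979), although it was not above the floor on both arrays of either group. Its difference was -0.17 without pcFLAG replicate 1. AXL and TYRO3 are named after their values were seen.

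ROR1, a WNT5A receptor, read 1.37 and 1.22 in the pcFLAG-hSTYK1 arrays, against 1.71 and 1.31 in the pcFLAG arrays. It overlapped between the groups and had the lowest bound of any receptor (difference -0.21, 95% interval -0.63 to 0.21). Without pcFLAG replicate 1 its difference was -0.016, and without pcFLAG replicate 2 it was -0.41. PTK7, a WNT co-receptor without an active kinase, averaged 1.07 in the pcFLAG-hSTYK1 arrays and 1.01 in the pcFLAG arrays. PDGFRB, the PDGF receptor of mesenchymal cells, read 0.57 and 0.73 in the pcFLAG-hSTYK1 arrays and 0.75 and 0.86 in the pcFLAG arrays, within 0.016 of the floor on its nearest pcFLAG array. Its difference of -0.15 was -0.075 without pcFLAG-hSTYK1 replicate 1, -0.23 without pcFLAG-hSTYK1 replicate 2 and -0.097 without pcFLAG replicate 2. Just outside the floor stood EPHB6, which missed it by 0.0017 on pcFLAG-hSTYK1 replicate 1, and AXL, which missed it by 0.021 on pcFLAG replicate 2.

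Several receptors best known from other cell types were likewise not above the floor on both arrays of either group. These were the vascular receptors KDR, FLT1, FLT4, TEK and TIE1, the stem and blood cell receptors KIT and FLT3, and the neuronal receptors NTRK2, NTRK3, ALK and RET. The others not above it on both arrays of either group were MUSK of the neuromuscular junction, the collagen receptor DDR2, the WNT5A receptor ROR2, the ALK relative LTK and the ephrin receptors EPHA3, EPHA4, EPHA6, EPHA7, EPHA8 and EPHA10. CSF1R, the macrophage receptor, lay at the floor, at 0.85 and 0.68 in the pcFLAG-hSTYK1 arrays and 0.81 and 0.77 in the pcFLAG arrays. The 30 receptors not above the floor had mean signals of 0.42 to 0.76, where a change could not be told from background. FGFR1, TYRO3, PTK7, CSF1R and EPHA1, given above with their families, fall outside the naming rule and were added after their values were seen.

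Across the 51 receptors, 0 passed the adjusted threshold in either direction (limma, adjusted p of 0.979 or more). EPHB4 was the 1 receptor with an unadjusted p under 0.05, a share of 1.96%. The share was 4.64% over all probe sets and 3.72% over all named genes, each read from 1 probe set as the receptors were. The count of receptors was 0 with the replicate number as a block, where EPHB4 had an unadjusted p of 0.0582 (limma). It was also 0 with a filter at the floor, quantile normalization or a trended robust variance. Leaving out 1 array gave EPHB4 differences of 0.20 to 0.31. Of the receptors 22 were higher and 29 lower, with a median difference of -0.01 where that of all probe sets was 0.0056 and that of all named genes 0.0022. Groups did not overlap for 17 receptors, 8 higher and 9 lower, a share of 33.3% where all probe sets had 32.8% (17.4% higher and 15.4% lower). The shares are near those of the array as a whole. Every one of the 51 differences was under 0.30 in size, from -0.25 (AXL) to 0.27 (EPHB6).

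The intervals limit how large a difference of signal between these arrays could have been missed. They rest on the spread among 2 arrays per group, which may be technical, so they may not cover the spread between separate cultures. The 95% intervals of the 51 receptors, which are not adjusted for their number, all lay within 1 log2 unit of 0 in both directions, and their outermost bounds were -0.63 for ROR1 and 0.57 for EPHB6. With the values read as log2, a halving or doubling of a signal thus lay outside the interval of each receptor, while smaller changes remain possible. For receptors near the floor the interval describes the signal only.

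**Figure D2:**
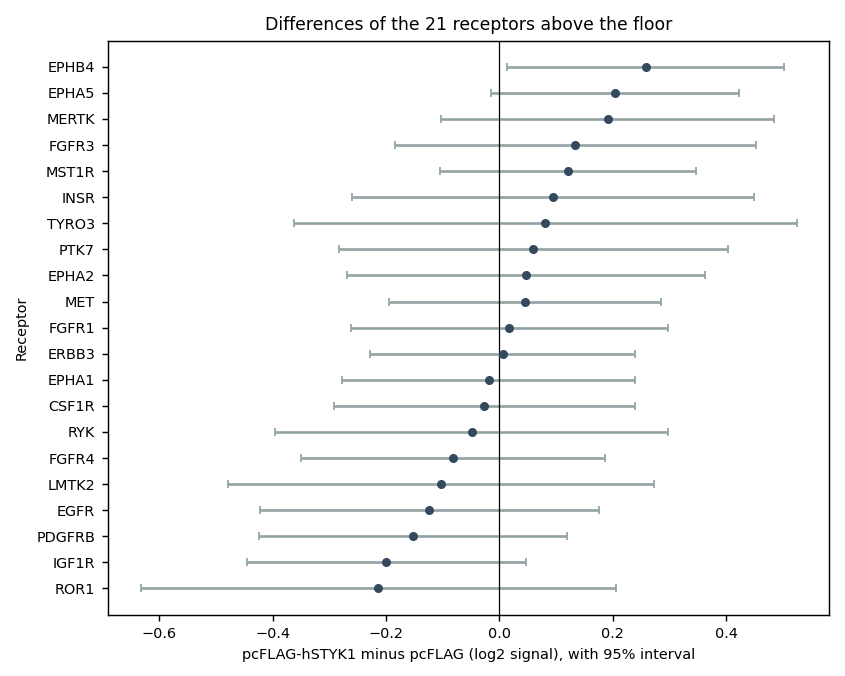
Log2 difference, pcFLAG-hSTYK1 minus pcFLAG, of the 21 receptors above the floor (points) with 95% intervals from limma (bars). The interval of EPHB4, 0.01 to 0.50, is the 1 that leaves out 0, and it is not adjusted for the number of receptors.

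Genes that act with the receptors were followed in 6 lists. No gene of any list passed the adjusted threshold (limma, adjusted p of 0.979 or more). An unadjusted p under 0.05 was found for 2 of 62 ligands, 0 of 21 co-receptors and sheddases and 2 of 35 adaptors and proximal effectors. The counts were 1 of 34 negative regulators, 0 of 29 cytoplasmic tyrosine kinases and 1 of 15 immediate early and other growth factor response genes. Over the 6 lists these counts are shares of 0% to 6.67%, where all probe sets had 4.64% and all named genes 3.72%. The medians of the lists lay between -0.03 and 0.04, against 0.0056 for all probe sets and 0.0022 for all named genes.

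Among the ligands GDF15, a stress-induced hormone that acts through GFRAL and RET, read 8.51 and 7.96 in the pcFLAG-hSTYK1 arrays, against 7.79 and 8.27 in the pcFLAG arrays, and overlapped. MDK, the growth factor midkine, read 4.93 and 5.03 in the pcFLAG-hSTYK1 arrays, against 5.26 and 5.23 in the pcFLAG arrays (difference -0.26, limma, unadjusted p = 0.0355). PTN, the relative of MDK, read 0.71 and 0.88 in the pcFLAG-hSTYK1 arrays and 0.44 and 0.56 in the pcFLAG arrays (difference 0.29, unadjusted p = 0.0437 by limma). Neither passed the adjusted threshold (limma, adjusted p = 0.979 each), PTN was not above the floor on both arrays of either group, and its difference was 0.15 by the mean of its probe sets. PROS1 averaged 5.81 in the pcFLAG-hSTYK1 arrays and 5.75 in the pcFLAG arrays. Of the co-receptors and sheddases, the heparan sulfate proteoglycans GPC3 (9.46 in the pcFLAG-hSTYK1 arrays and 9.48 in the pcFLAG arrays) and SDC4 (7.17 and 6.93 in the same order) and the metalloprotease ADAM9 (6.42 and 6.33) had the highest signals.

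Among the adaptors SHC1, which links receptors to RAS, read 5.30 and 5.45 in the pcFLAG-hSTYK1 arrays, against 5.66 and 5.65 in the pcFLAG arrays (difference -0.28, limma, unadjusted p = 0.0375). IRS2, the docking protein of the insulin receptor, read 1.20 and 1.19 in the pcFLAG-hSTYK1 arrays, against 0.95 and 0.84 in the pcFLAG arrays (difference 0.31, limma, unadjusted p = 0.0218). Neither passed the adjusted threshold. The phosphatase PTPN11 (6.94 in the pcFLAG-hSTYK1 arrays and 6.96 in the pcFLAG arrays) and the adaptor CRKL (6.38 and 6.35 in the same order) had the highest signals of that list.

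Among the negative regulators ERRFI1, an inhibitor of EGFR, averaged 8.58 in the pcFLAG-hSTYK1 arrays and 8.45 in the pcFLAG arrays and overlapped. PTPRK, a receptor phosphatase, read 5.79 and 5.75 in the pcFLAG-hSTYK1 arrays, against 5.50 and 5.57 in the pcFLAG arrays (difference 0.24, limma, unadjusted p = 0.0454). PTPN2, a phosphatase of INSR, EGFR and JAK kinases, read 3.68 and 3.22 in the pcFLAG-hSTYK1 arrays, against 2.75 and 3.10 in the pcFLAG arrays. This was the largest difference in the 6 lists, at 0.53 ± 0.21 (standard error), short of the threshold (limma, adjusted p = 0.979), and it was 0.29 without pcFLAG-hSTYK1 replicate 1. PTPN1 averaged 5.84 in the pcFLAG-hSTYK1 arrays and 5.89 in the pcFLAG arrays.

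Of the cytoplasmic tyrosine kinases YES1 (6.98 in the pcFLAG-hSTYK1 arrays and 6.88 in the pcFLAG arrays), JAK1 (6.32 and 6.28 in the same order) and FRK (6.10 and 6.09) had the highest signals. SRC read 2.40 and 2.19 in the pcFLAG-hSTYK1 arrays, against 1.74 and 2.19 in the pcFLAG arrays, and the value of pcFLAG-hSTYK1 replicate 2 exceeded that of pcFLAG replicate 2 by under 0.01. The SRC difference of 0.34 was 0.11 without pcFLAG replicate 1 and 0.56 without pcFLAG replicate 2. Of the immediate early and other growth factor response genes, MYC averaged 7.01 in both groups. JUN averaged 6.13 in the pcFLAG-hSTYK1 arrays and 5.90 in the pcFLAG arrays, and both genes overlapped. CCND1, cyclin D1, averaged 5.25 in the pcFLAG-hSTYK1 arrays and 5.44 in the pcFLAG arrays, without overlap (limma, adjusted p = 0.979). ETV5, a transcription factor induced by FGF and ERK signalling, read 1.90 and 1.68 in the pcFLAG-hSTYK1 arrays, against 2.08 and 2.11 in the pcFLAG arrays (difference -0.30, limma, unadjusted p = 0.0435, and -0.19 without pcFLAG-hSTYK1 replicate 2). PTN, IRS2, ETV5, PTPN2 and SRC were chosen after their values were seen.

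**Figure D3:**
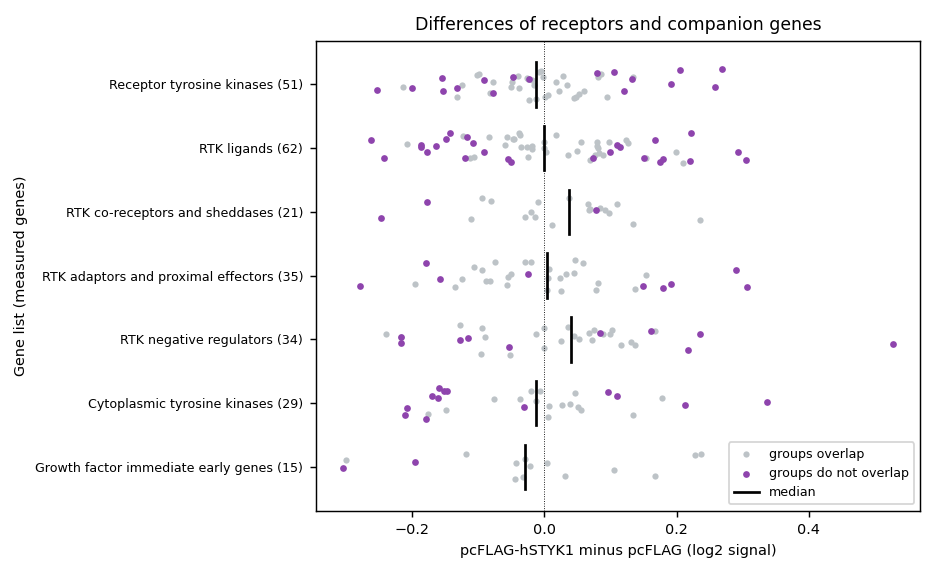
Log2 difference, pcFLAG-hSTYK1 minus pcFLAG, of the 51 receptors and of the measured genes of 6 lists of partner genes, 1 point a gene, spread vertically at random. Purple points have groups that do not overlap, black bars are medians, which lie between -0.03 and 0.04, and the point farthest right is PTPN2 at 0.53.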

How the data were processed

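Per the labels' protocols, total RNA of the transfected Huh7 cells was amplified, turned into cDNA, labelled with biotin and put on arrays. The authors deposited 1 signal, read here as log2, for each of 53617 probe sets on each of 4 arrays. The submitters' processing notes name the Transcriptome Analysis Console. How signals were summarized and normalized, and on which build, is not given in the sources used here. Their log base was inferred, since as natural logarithms the maxima would stand for 82224 to 84779, above the 65535 of a 16-bit scanner. No further normalization was applied. Nothing marks a detection limit, and processing that shrinks dim signals would lower the differences of dim genes.

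Platform annotation gave 23871 probe sets with 1 symbol, 1842 with several and 27904 with none here. Of the first, 22569 matched RefSeq (GRCh38.p14) by Entrez ID, and 90 symbols were updated. Each gene was read from its probe set with the highest mean. Groups were compared with limma 3.58.1 (R 4.3.3): lmFit on the group, eBayes without a trend (2 residual and 2.71 prior degrees of freedom), two-sided, with p-values adjusted over the whole table by Benjamini-Hochberg and called at 0.05. The median standard error of a difference was 0.108. The test was tried on simulated data, with added changes larger than any receptor difference here. These were put only in probe sets with signals over those of most receptors, so the trial does not cover small changes or dim genes.

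Members, lists, floor and tests were chosen with earlier results of these data known. By rule the text names STYK1, the 12 receptors with the highest mean, up to 5 members per direction with the smallest unadjusted p among those above the floor, and the 3 genes with the highest mean in each list; exceptions are marked in the text. Alternatives were leaving out each array, the replicate number as a block, a trended robust variance, quantile normalization, a filter at the floor, 1 probe set per gene, the mean of a gene's probe sets, and other floors. Same-numbered arrays had deviations from their group means correlated at -0.044 over all probe sets, and nothing in the labels pairs them.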

Additional observations from a re-analysis of the deposited data

How the results depend on the processing

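The precision of 2 arrays per group, and the background of dim probe sets, limit all results. STYK1 kept its direction in all 10 alternatives (6.96 to 7.42), passing in 5. Leaving out 1 array gave a difference of 6.96 to 7.42, 0 members called (0 to 0), 1 to 3 members and 0 to 2 receptors at an unadjusted p under 0.05. With 3 arrays, the group left with 1 array takes its spread from the other. Under the replicate block STYK1 differed by 7.19 (limma, adjusted p = 0.0637), so 0 members were called where there had been 1; the cause was not tested. Members at an unadjusted p under 0.05, 2 in all, fell to 1 (STYK1), and receptors to 0, with the block, the filter at the floor, quantile normalization and the trended robust variance. Members above the floor numbered 22 with STYK1, and 18 both at the 99th percentile and when all 4 arrays had to pass. STYK1 ranked 1 in every alternative run for the rank, and 0 list genes and 0 receptors were called in any of the 10.

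Of 50 genes whose differences were followed beside STYK1, 24 changed sign under some alternative, none past the threshold in any (lowest adjusted p = 0.787 by limma). By quantile normalization these were ERBB3 (-0.0060), CRKL (-0.0093), FRK (-0.014), MYC (-0.023) and FGFR1 (-0.015). Leaving out 1 array, the ranges were MET -0.012 to 0.10, FGFR4 -0.17 to 0.0082, LMTK2 -0.23 to 0.026, RYK -0.18 to 0.080, EPHA2 -0.069 to 0.16, ERBB3 -0.037 to 0.049, INSR -0.043 to 0.23, GDF15 -0.065 to 0.48, PROS1 -0.021 to 0.13, GPC3 -0.070 to 0.031, SDC4 -0.011 to 0.48, CRKL -0.20 to 0.25, ERRFI1 -0.0029 to 0.26, PTPN1 -0.11 to 0.011, JAK1 -0.11 to 0.19, FRK -0.033 to 0.045, MYC -0.13 to 0.14, HGF -0.10 to 0.048, FGF19 -0.18 to 0.33, KLB -0.078 to 0.27, FGFR1 -0.084 to 0.12, TYRO3 -0.11 to 0.27, PTK7 -0.090 to 0.21 and CSF1R -0.11 to 0.060.
Without a change of sign, leaving out 1 array also moved ADAM9 (0.0020 to 0.17), PTPN11 (-0.046 to -0.0027) and JUN (0.065 to 0.39) by over 1.5 times, and quantile normalization moved PTPN11 to -0.053; EGFR, FGFR3, IGF1R, MERTK, PDGFRB, ROR1, EPHB6, AXL, PTN, PTPN2, SRC and ETV5 are given above. The sets of fits for the receptors without STYK1, the lists and the single genes, and the mean of a gene's probe sets for STYK1, were added after seeing the data.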
